A study of Mus musculus with 446 samples.

Results

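Liver and skeletal muscle of the same control-fed mice were compared, with liver libraries set against muscle libraries mouse by mouse. Of the 446 libraries of the series, the comparison used 63 from liver and 63 from muscle of 63 mice, chosen by the control diet in the labels, by the mouse number that pairs the tissues, and by a minimum of 8000 genes at 1 TPM or more in both. Of the control libraries, 64 of 74 from liver and 73 of 74 from muscle reached that minimum. All mice were males of the Diversity Outbred stock, an outbred population in which every animal carries its own mixture of inbred founder genomes. The control mice ate a diet with 10 kcal% fat for 14 weeks and had been housed at 6 weeks of age. Matching liver and muscle libraries of 60 mice on a 60 kcal% fat diet were used to repeat the comparison in other animals. They were also used to test a change of the tissue difference with diet, and to choose genes for checking the pairing. Tissues were sequenced whole, and the labels do not say which muscle was taken.

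The liver makes most plasma proteins, bile acids, urea and ketone bodies, and releases glucose into the blood. Skeletal muscle is built from contractile fibres, takes up glucose under insulin, and burns glucose, fatty acids and ketone bodies to pay for contraction. Many steps of fuel metabolism are carried out in the 2 organs by products of different genes, so that the same reaction can be regulated in its own way in each.

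The deposited values are TPM, transcript abundances corrected for length that add up to 1000000 in every library, and they keep no read depth, so no counting error can be given. Levels below are scaled TPM: TPM divided by a library factor that puts the bulk of nuclear protein-coding genes at the same level in both tissues. The factors ran from 0.244 to 1.31 in liver and from 0.702 to 2.67 in muscle, and 8475 to 13974 genes reached 1 TPM in liver against 10397 to 17910 in muscle. Differences are liver minus muscle on the scale of log2(scaled TPM + 1), with the standard error (SE) from limma, and understate the difference of low genes. A gene was called when limma's treat, with the mouse as a block, placed it beyond a 2-fold difference at a Benjamini-Hochberg adjusted p under 0.05. These p-values describe the spread between mice.

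Defining genes of each tissue matched the labels. The 8 hepatocyte markers summed to 38893 to 97155 scaled TPM in liver, with a median of 59458, and to 0.129 to 1398 in muscle, with a median of 6.06. The 8 myofibre markers summed to 0 to 3923 scaled TPM in liver, with a median of 1.65, and to 26799.7 to 147991 in muscle, with a median of 94595. Both liver libraries with over 1000 scaled TPM of myofibre markers (mice 32 and 34) and the 1 muscle library with over 1000 of hepatocyte markers (mouse 39) stand apart from the rest. Leaving these 3 mice out gave 2580 genes higher in liver and 2328 higher in muscle, against 2591 and 2313 with them. In 5 muscle libraries (mice 10, 21, 34, 47 and 62) the 8 lymphocyte markers summed to over 10 and up to 199 scaled TPM, against at most 3.18 in the other muscles. These 5 also had high library factors (1.89 to 2.67) and low myofibre sums (26799.7 to 65411), but were not alone in this. Muscles of mice 69 and 15, with lymphocyte sums of 1.42 and 1.23, had factors of 2.33 and 1.87 and myofibre sums of 30675 and 51049. Mice 17 and 63 had low myofibre sums (63105 and 64127) with factors of 0.844 and 1.46. Without the 5 mice with lymphocyte markers in muscle, 2614 genes were higher in liver and 2359 in muscle. An rRNA-like signal (genes annotated as rRNA, Lars2 and a few transcripts known to overlap rRNA repeats) made up 1.83% to 78.9% of liver TPM and 2.36% to 49.2% of muscle TPM. It exceeded 50% in 9 livers, and without those mice 2637 genes were higher in liver and 2326 in muscle. By genes chosen in the high-fat mice, liver and muscle each correlated best with the library of the same number in 61 of the 63 pairs.

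A total of 13079 genes were tested, and 2591 (19.8%) were higher in liver and 2313 (17.7%) higher in muscle by more than 2-fold. Against no difference at all, 11937 (91.3%) were called. A gene entered the test with 1 scaled TPM or more in at least 45 of 63 libraries of either tissue. Genes that entered through 1 tissue only had to differ to some degree: 1163 of 1640 such genes were called higher in liver and 1110 of 1684 higher in muscle. Among the 9755 genes that entered in both tissues, 1428 (14.6%) were higher in liver, 1203 (12.3%) were higher in muscle, and 6246 (64.03%) had a 95% interval of the difference that lay inside 2-fold. The ranges of the 63 liver and the 63 muscle libraries did not overlap for 2683 genes (20.5%). In TPM as deposited, without the library factors, the median difference of all genes moved by -0.55 and the calls became 1733 higher in liver and 3669 higher in muscle, so that moderate differences below are relative to the bulk of protein-coding genes.

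**Figure D1:**
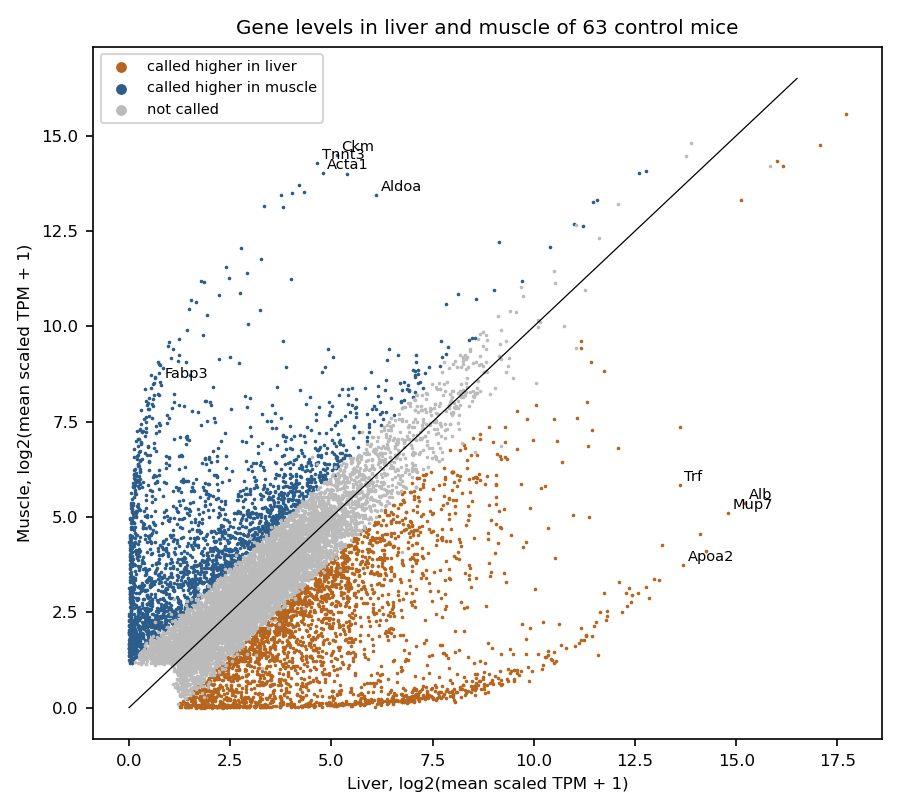
Mean level of each of the 13079 tested genes in liver (x axis) and muscle (y axis) of 63 control mice, both as log2(mean scaled TPM + 1), coloured by the call against 2-fold. Genes on the line have equal means. The 2591 genes higher in liver lie to the lower right, with Alb at the far end, and the 2313 higher in muscle lie to the upper left, with Ckm at the far end.

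In liver, the largest differences were mostly those of secreted plasma proteins. Alb, which encodes albumin, had a lowest, median and highest level of 19898, 36871 and 74185 in liver and 0.0917, 2.84 and 904 in muscle. It was higher in liver in 63 of 63 mice and differed by 12.19 ± 0.29 (SE, n = 63 pairs, limma adjusted p = 1.81e-45). Apoa2, an apolipoprotein of high-density lipoprotein, had 9594, 13116 and 18996 in liver and 0, 0.832 and 279.9 in muscle, and Apoa1, the main apolipoprotein of those particles, had 5054, 7779 and 12004 in liver and 0, 1.01 and 201 in muscle. The groups did not overlap for any of these 3 genes. Ttr, the carrier of thyroid hormone, had medians of 4798 in liver and 0.356 in muscle. Ahsg, which encodes fetuin-A, had 5038 in liver and 0.429 in muscle, and Gc, the vitamin D-binding protein, had 3604 in liver and 0.427 in muscle. Fabp1, which binds fatty acids inside hepatocytes, had 2959.6, 6807 and 14837 in liver and 0, 0.462 and 204 in muscle. The remaining largest differences in liver were those of Mup7 (12.10), Mup1 (11.996), Mup3 (11.14), Serpina3k (11.49) and Serpina1c (10.70). These 5 belong to families of near-identical copies, between which the authors' counting could split reads, so their single levels are uncertain. Major urinary protein genes (Mup), whose products carry pheromones in male urine, together took 5.7% to 32.5% of the nuclear protein-coding TPM of a liver library, with a median of 15.6%, and a median of 0.00369% in muscle.

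In muscle, the largest differences were those of fast-fibre contractile genes and of creatine kinase. Ckm, which encodes the muscle creatine kinase that buffers ATP, had a lowest, median and highest level of 0, 0.0318 and 1042 in liver and 6572, 22053 and 45961 in muscle. It was higher in muscle in 63 of 63 mice and differed by -13.59 ± 0.27 (SE, n = 63 pairs, limma adjusted p = 5.37e-50). Acta1, skeletal alpha-actin, had 0, 0.0465 and 771 in liver and 4002, 17437 and 24765 in muscle, and Tnnt3, fast troponin T, had 0, 0 and 708 in liver and 5228, 21105 and 32487 in muscle. The highest liver values of these 3 genes come from the libraries with myofibre markers, and even these lie below the lowest muscle values. Myh4, the fastest myosin heavy chain, had 0, 0.0267 and 406 in liver and 2780.5, 8596 and 16617 in muscle. Pvalb, a calcium buffer of fast fibres, was listed at a median of 0 in liver and had 3024, 8921 and 16961 in muscle. The remaining largest differences in muscle were those of Myl1 (-12.97), Tnnc2 (-12.76), Tnni2 (-12.69), Mylpf (-12.004), Atp2a1 (-11.45), Actn3 (-11.08) and Ttn (-10.67), all of them parts of the sarcomere except Atp2a1, the calcium pump of the sarcoplasmic reticulum.

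The promoter windows of 3 genes from each end are shown to set the sequence beside the levels given above, and were chosen after motif matches were seen. They are RefSeq sequences of build GRCm38.p6, from 250 bases before to 50 bases after the gene start, 5′ to 3′ on the strand of the gene. In all 6 the capitals mark GTTAAT, part of the site of the liver factor HNF1, CAGCTG, an E-box of the kind bound by MyoD-family factors, CArG boxes, which bind serum response factor, and TATAAA on the strand of the gene. The 3 liver genes come first, and Fabp1 among them also holds a CAGCTG.
Alb (chr5:90460620-90460919, plus strand): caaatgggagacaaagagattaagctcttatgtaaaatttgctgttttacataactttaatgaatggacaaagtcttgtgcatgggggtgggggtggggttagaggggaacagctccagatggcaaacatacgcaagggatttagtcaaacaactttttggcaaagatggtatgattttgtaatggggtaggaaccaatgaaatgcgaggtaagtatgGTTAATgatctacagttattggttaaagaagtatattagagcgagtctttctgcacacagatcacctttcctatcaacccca
Gc (chr5:89457849-89458148, minus strand): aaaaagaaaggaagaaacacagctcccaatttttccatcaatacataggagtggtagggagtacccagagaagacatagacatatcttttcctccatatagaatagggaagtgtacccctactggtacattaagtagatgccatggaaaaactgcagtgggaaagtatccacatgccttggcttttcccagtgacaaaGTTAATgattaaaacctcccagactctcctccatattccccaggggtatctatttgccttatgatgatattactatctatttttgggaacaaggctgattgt
Fabp1 (chr6:71199629-71199928, plus strand): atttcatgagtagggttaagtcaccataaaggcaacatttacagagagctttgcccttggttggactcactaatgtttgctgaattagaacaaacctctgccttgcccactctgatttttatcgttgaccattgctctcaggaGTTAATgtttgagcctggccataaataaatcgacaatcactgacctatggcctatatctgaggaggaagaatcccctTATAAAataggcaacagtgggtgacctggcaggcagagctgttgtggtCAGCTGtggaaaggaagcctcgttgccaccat
The 3 muscle genes follow.
Ckm (chr7:19410844-19411143, plus strand): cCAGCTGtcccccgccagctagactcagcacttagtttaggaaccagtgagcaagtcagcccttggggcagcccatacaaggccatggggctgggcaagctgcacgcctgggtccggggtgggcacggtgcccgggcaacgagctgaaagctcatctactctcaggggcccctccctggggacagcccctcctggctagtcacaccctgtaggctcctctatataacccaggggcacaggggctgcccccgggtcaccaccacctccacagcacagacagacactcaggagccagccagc
Acta1 (chr8:123894726-123895025, minus strand): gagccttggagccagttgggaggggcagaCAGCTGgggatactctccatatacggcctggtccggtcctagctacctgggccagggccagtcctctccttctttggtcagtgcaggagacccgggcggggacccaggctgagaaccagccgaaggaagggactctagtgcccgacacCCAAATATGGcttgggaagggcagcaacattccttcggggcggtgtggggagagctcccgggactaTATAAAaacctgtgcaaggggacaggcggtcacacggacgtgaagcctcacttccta
Myh4 (chr11:67237562-67237861, plus strand): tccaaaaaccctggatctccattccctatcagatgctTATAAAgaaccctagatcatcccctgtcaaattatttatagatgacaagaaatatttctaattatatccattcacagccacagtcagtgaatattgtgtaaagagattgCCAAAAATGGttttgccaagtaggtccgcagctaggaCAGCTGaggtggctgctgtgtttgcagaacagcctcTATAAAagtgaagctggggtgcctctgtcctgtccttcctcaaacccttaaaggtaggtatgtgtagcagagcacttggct
On both strands, GTTAAT was present in 8.39% of 2325 windows of genes higher in liver, in 4.26% of 2230 windows of genes higher in muscle, in 3.99% of 7740 windows of genes not called and in 7.1% of all 32851 windows. CAGCTG was present in 16.9% of the liver windows, in 20.0% of the muscle windows and in 16.3% of all windows. MEF2 sites were present in 0.086% of the liver windows, in 1.35% of the muscle windows and in 0.557% of all windows, and CArG boxes in 1.33%, 2.15% and 1.63%. CAAAGTCCA, which binds HNF4, was present in 1.08% of the liver windows, 0.359% of the muscle windows and 0.475% of all windows. CATTCC, bound by TEAD factors, was present in 13.9%, 13.5% and 14.7%, in the same order, TATAAA in 12.0%, 9.69% and 13.6%, and TTGCGCAA, bound by C/EBP factors, in 0.172%, 0.179% and 0.183%. All windows include those of genes that were not tested. In windows of genes not called, CAGCTG was present in 14.1%, MEF2 sites in 0.375%, CArG boxes in 1.06% and CAAAGTCCA in 0.362%. CATTCC was present there in 11.6%, TATAAA in 6.41% and TTGCGCAA in 0.375%. TATAAA was thus more frequent in both called sets than in genes not called, but less frequent than in all windows. The full HNF1 site was present in 1 liver window, no muscle window and 3 of all windows. A match describes the letters of the window and not a bound site, and windows were found for 9565 of the 13041 tested gene symbols.

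Lists of genes with a shared role were described by their calls, beside 19.8% higher in liver and 17.7% higher in muscle over all genes and a median difference of 0.02. All 26 listed plasma proteins were higher in liver, with a median difference of 9.70, and 20 of them entered the test through liver only. Together they took 13.1% to 24.9% of nuclear protein-coding TPM in liver, with a median of 17.03%, against a median of 0.0284% in muscle. Saa1, an acute phase protein, had 1.86, 49.9 and 7496 in liver and was listed at a median of 0 in muscle, with the same uncertainty as other genes that have a near-identical copy. Of 32 coagulation and complement genes, 29 were higher in liver, and 24 of the 32 entered the test through liver only. The 3 that were not called, C1qa (0.63 ± 0.11), C1qb (0.88 ± 0.11) and C1qc (0.71 ± 0.10), encode complement C1q, which macrophages make. Fgg, a fibrinogen chain, had medians of 2638 in liver and 0.125 in muscle, and F2, prothrombin, had 818 in liver and 0.195 in muscle.

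Genes that handle lipoproteins divided between the tissues. Of 24, 21 were higher in liver and 2 in muscle, and 14 entered the test through liver only and 1 through muscle only. Apob, the structural protein of very low-density lipoprotein, had medians of 1422 in liver and 0.215 in muscle. Apoe had 9492, 12281 and 16152 in liver and 44.9, 118.2 and 513 in muscle. The 2 muscle genes take up lipid from the blood: Lpl, lipoprotein lipase, had 1.34, 6.74 and 27.2 in liver and 51.1, 179 and 563 in muscle, and Vldlr, a lipoprotein receptor, had medians of 0.732 in liver and 47.1 in muscle. Gpihbp1, which anchors lipoprotein lipase to capillaries, was not called (-0.66 ± 0.07). Angptl4, an inhibitor of that lipase, overlapped between tissues, at 4.14, 28 and 75 in liver and 0.303, 5.91 and 69 in muscle, and was called higher in liver (1.87 ± 0.18, limma adjusted p = 1.55e-05), a call that was lost in TPM as deposited.

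Bile acid, drug and nitrogen metabolism stood on the liver side. Of 19 bile acid genes, 18 were higher in liver. Entry to the test was through liver only for 15 bile acid, 19 xenobiotic and 17 urea cycle and nitrogen genes of this paragraph. Slc10a1, the bile acid uptake carrier of hepatocytes, had medians of 364 in liver and 0.516 in muscle. Cyp7a1, which controls how fast cholesterol becomes bile acid, had 1.78, 13.4 and 98.6 in liver and was listed at a median of 0 in muscle. All 28 xenobiotic enzymes were higher in liver, among them Cyp2d9 (876 in liver and 0.0545 in muscle) and Ces1c (1502 in liver and 0.112 in muscle), while Por, the reductase that feeds electrons to cytochrome P450 enzymes, differed least (1.27 ± 0.11, a call lost in TPM as deposited and without the 9 mice with an rRNA-like share over 50%). Of 30 urea cycle and nitrogen genes, 25 were higher in liver and 2 in muscle. Cps1, which starts the urea cycle, had 863, 1446 and 2134 in liver and 0, 0.0923 and 25.2 in muscle, and Arg1, which ends it, had medians of 1007 in liver and 0.16 in muscle. Mat2a, which makes S-adenosylmethionine outside the liver, was higher in muscle (26.6 in liver and 63.5 in muscle). Got1, Got2 and Gpt2, which move amino groups, were not called, at -0.07 ± 0.11, 0.36 ± 0.06 and 0.22 ± 0.09.

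**Figure D2:**
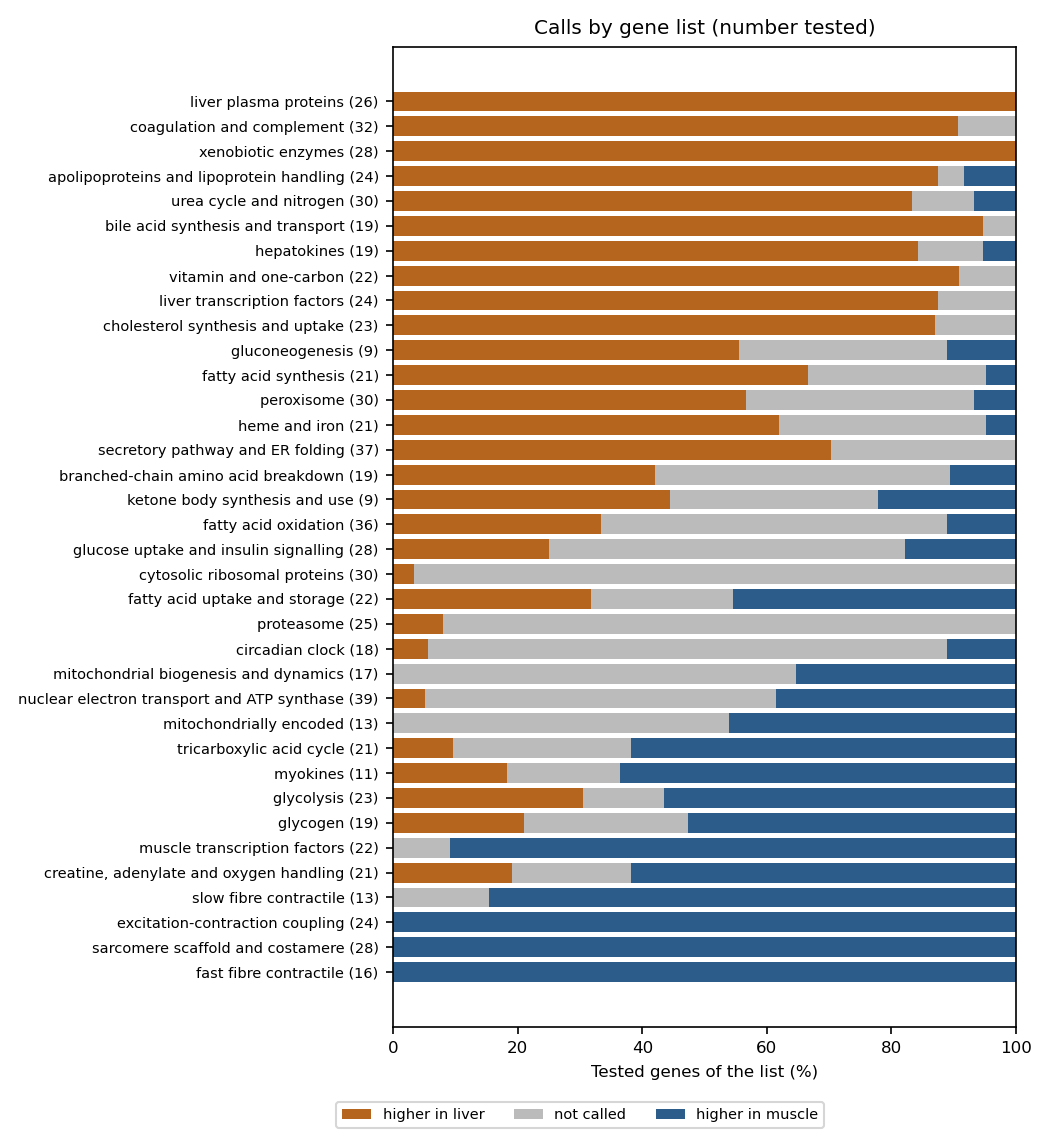
Share of the tested genes of each of 36 lists that were called higher in liver, not called, or called higher in muscle (x axis, percent), with the number tested in brackets and lists ordered by median difference. Plasma proteins and xenobiotic enzymes were all higher in liver, fast-fibre, scaffold and excitation-contraction genes were all higher in muscle, and cytosolic ribosomal proteins and proteasome genes were mostly not called.

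Contractile genes made the other end of the range. All 16 fast-fibre genes, all 28 sarcomere scaffold and costamere genes and all 24 genes of excitation-contraction coupling were higher in muscle, with median differences of -11.73, -7.37 and -6.49. Of these, 15, 23 and 23 entered the test through muscle only. Fast-fibre genes took a median of 0.00308% of nuclear protein-coding TPM in liver and 14.2% to 31.8% in muscle, with a median of 25.99%. Of the fast myosin heavy chains, Myh1 had 132.9, 604 and 2201 and Myh2 had 22.1, 237 and 821 in muscle, both under Myh4 per length of transcript in the median. Ryr1, the calcium release channel, had medians of 0.00528 in liver and 339 in muscle. Dmd, dystrophin, differed least among the scaffold genes, at 8.45, 16.3 and 26.8 in liver and 31.6, 61.1 and 110.7 in muscle (-1.84 ± 0.07). Of 13 slow-fibre genes, 11 were higher in muscle, and 9 of the 13 entered the test through muscle only. Myh7, the slow myosin heavy chain, had 0.188, 49.2 and 608 in muscle, and Myl2, a slow light chain, had 0.949, 220.2 and 2940.4, so that single muscles differed widely. Slow-fibre genes took 0.0301% to 2.63% of nuclear protein-coding TPM in muscle. Atp2a2, the calcium pump of slow fibres and of other cells, had 25.4, 59.9 and 149.9 in liver and 8.54, 58.8 and 493 in muscle and was not called (0.22 ± 0.19), and neither was Pln, its inhibitor (-0.33 ± 0.09).

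Enzymes, carriers and regulators were also compared as 30 pairs of genes that serve the same step in the 2 tissues, of which 20 had the first member called higher in liver and the second called higher in muscle. The count was 17 in TPM as deposited, and 17 with a minimum of 12000 genes per library. The pairs were chosen with their textbook tissue in mind, and those of sugar metabolism come first. Hk2, the muscle hexokinase, had 0.134, 0.406 and 3.09 in liver and 15.9, 42.6 and 63.1 in muscle, with no overlap between tissues. Slc2a2, the glucose transporter of hepatocytes, had 105.2, 222 and 309.9 in liver and 0, 0.0448 and 5.43 in muscle, and Slc2a4, the insulin-responsive transporter, had 0, 0.503 and 10.9 in liver and 64.2, 199 and 273 in muscle. Aldoa, the muscle aldolase, differed by -7.59 ± 0.12. Pklr and Pkm, the pyruvate kinases, differed by 6.58 ± 0.09 and -7.46 ± 0.11. In the middle of the pathway the liver members differed less, with Pfkl at 11.6 in liver and 3.7 in muscle and Pfkm at 5.02 in liver and 1120.2 in muscle for phosphofructokinase, and Eno1 at 157 in liver and 60.2 in muscle and Eno3 at 2.48 in liver and 3485 in muscle for enolase. Pfkl and Eno1 were not called in TPM as deposited. Of 23 glycolysis genes, 7 were higher in liver and 13 in muscle, and 3 of the 23 entered the test through liver only and 2 through muscle only. The 23 together took a median of 0.656% of nuclear protein-coding TPM in liver and 5.76% in muscle.

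**Figure D3:**
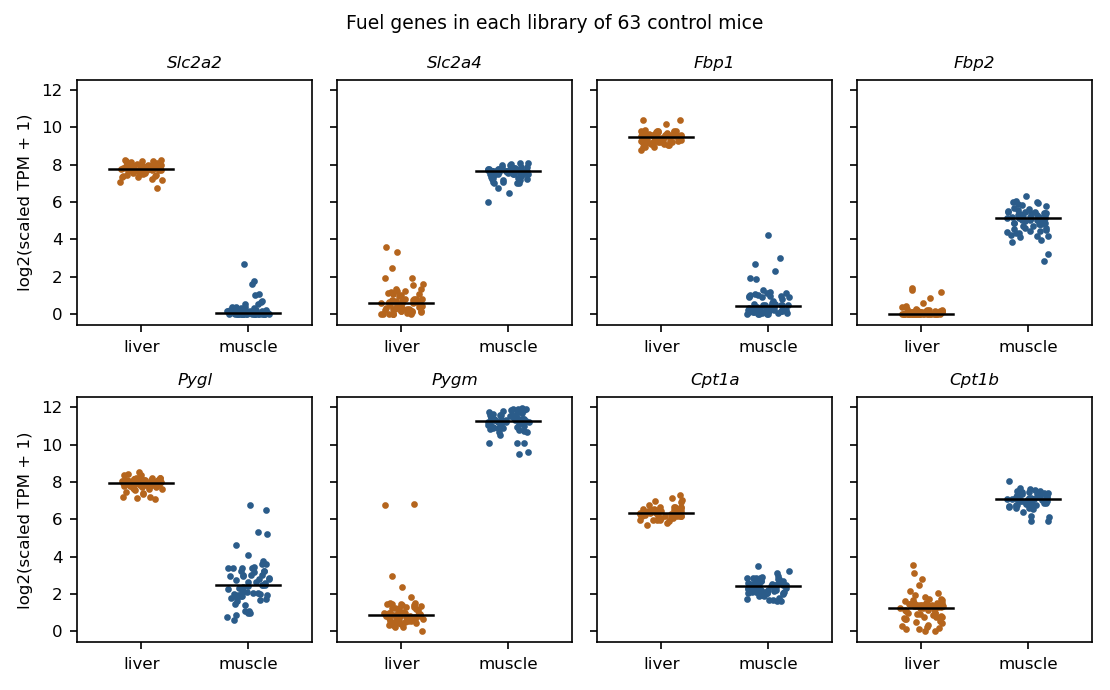
Level of 8 genes of glucose, glycogen and fatty acid metabolism in every library, as log2(scaled TPM + 1), with liver left of muscle, points for 63 mice and a line at the median. Slc2a2, Fbp1, Pygl and Cpt1a sit higher in liver, and Slc2a4, Fbp2, Pygm and Cpt1b sit higher in muscle.

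Of 9 tested gluconeogenesis genes, 5 were higher in liver, 1 in muscle and 3 were not called, and 3 of the 5 entered the test through liver only. Fbp1, fructose bisphosphatase of liver, had 435, 708 and 1371 in liver and 0, 0.342 and 17.8 in muscle, and G6pc, which frees glucose for export, had medians of 304 in liver and 0.068 in muscle. Fbp2, the muscle form, had 0, 0 and 1.65 in liver and 6.15, 33.8 and 80.2 in muscle. Pck1, which commits carbon to glucose, was higher in liver (5.16 ± 0.23) but reached 0.28, 12.7 and 386 in muscle. Adipocyte markers summed to 0.56 to 18.3 scaled TPM in liver and 56.7 to 2328 in muscle. Pck1 is also expressed in adipocytes, and the part of these cells in its muscle level was not tested. In this and every whole-tissue comparison here, fewer cells of a type and less RNA per cell cannot be told apart. Gys2 and Gys1, the glycogen synthases, differed by 4.93 ± 0.15 and -5.58 ± 0.07. Pygl, the liver glycogen phosphorylase, had 136.03, 246 and 376 in liver and 0.517, 4.59 and 108.3 in muscle, and Pygm, the muscle form, had 0, 0.807 and 113.2 in liver and 715, 2505 and 3952 in muscle. Of 19 glycogen genes, 4 were higher in liver and 10 in muscle, with Gbe1 (0.97 ± 0.06) and Ugp2 (-0.42 ± 0.07) among the 5 not called. Of the 19, 2 entered the test through liver only and 4 through muscle only. Among the 13 that entered in both tissues, 2 were higher in liver and 6 in muscle, with a median of -0.80, against -2.68 for the list. Of 28 genes of glucose uptake and insulin signalling, 7 were higher in liver and 5 in muscle, and 4 of the 28 entered through liver only and 2 through muscle only. Insr (0.96 ± 0.04), Irs1 (-0.99 ± 0.08), Irs2 (0.04 ± 0.10), Akt1 (-0.18 ± 0.04) and Akt2 (-1.01 ± 0.04) were not called. The counts of that list were 7 and 9 in TPM as deposited, with Irs1 and Akt2 higher in muscle.

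**Figure D4:**
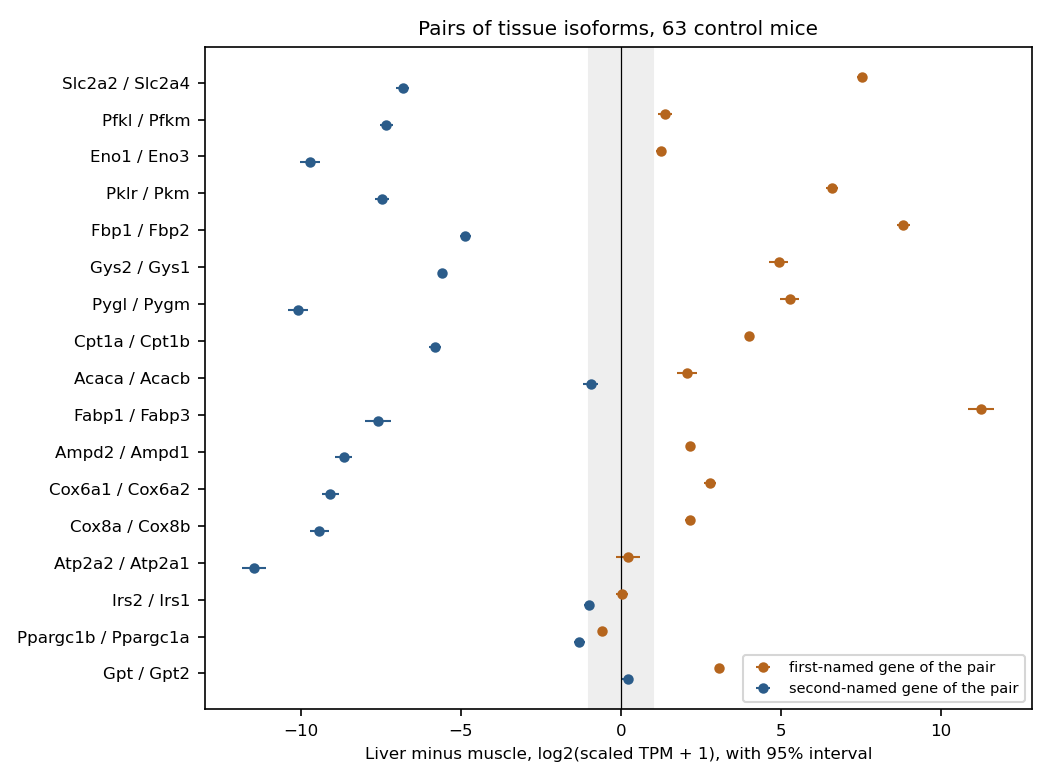
Difference between liver and muscle (x axis, liver minus muscle on log2(scaled TPM + 1), points with 95% intervals) for both genes of the 17 pairs whose 2 genes are named in the text, with the grey band inside 2-fold. In 12 of them the first-named gene was called higher in liver and the second-named gene higher in muscle.

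The pairs that did not divide in this way were of several kinds. For Phka2 (1.02 ± 0.08), Prkaa1 (-0.37 ± 0.04), Cox7a2 (-0.11 ± 0.06), Slc16a1 (0.26 ± 0.06) and Ppargc1b (-0.58 ± 0.07), as for Atp2a2, the first gene was not called while its muscle partner was higher in muscle. Acaca, the acetyl-CoA carboxylase of fatty acid synthesis, was higher in liver (2.06 ± 0.17), while Acacb, which restrains fatty acid entry into mitochondria, was not called (2.38, 18.2 and 58.7 in liver and 15.2, 37.6 and 74.7 in muscle, -0.95 ± 0.12). Gpt was higher in liver (3.06 ± 0.06) and Gpt2 was not called. In cytochrome oxidase, Cox6a1 and Cox8a were higher in liver (2.77 ± 0.09 and 2.15 ± 0.08), and Cox6a2 and Cox8b, both listed at a median of 0 in liver, had 215, 722 and 1323 and 342, 928 and 1484 in muscle. In purine turnover, Ampd2 and Ampd1 differed by 2.17 ± 0.06 and -8.66 ± 0.13, and Ak1, an adenylate kinase, differed by -8.76 ± 0.14.

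Fatty acid oxidation had genes on both sides. Of 36, 12 were higher in liver, 4 were higher in muscle and 20 were not called, with a median of 0.61. These became 10 and 6 in TPM as deposited, with a median of -0.03. Of the 36, 3 entered the test through liver only and 3 through muscle only. Among the 30 that entered in both tissues, 9 were higher in liver and 1 in muscle. Cpt1a, the liver form of the carnitine transferase that admits fatty acids to mitochondria, had 50.5, 80.3 and 155 in liver and 2.03, 4.35 and 10.2 in muscle, and Cpt1b, the muscle form, had medians of 1.4 in liver and 134.8 in muscle. None of 4 enzymes of the spiral was called, with Hadha at 121.1, 170.2 and 243 in liver and 82.5, 169.6 and 255 in muscle (0.01 ± 0.05), Acadvl at 0.43 ± 0.05, Acadm at -0.40 ± 0.06 and Hadhb at -1.07 ± 0.05. Hadhb was called higher in muscle in TPM as deposited. Ehhadh, a peroxisomal enzyme, was higher in liver (4.42 ± 0.08). Ucp3, an uncoupling protein of muscle, and Pdk4, which blocks glucose oxidation, were higher in muscle. Ucp3 had medians of 0 in liver and 31.6 in muscle, and Pdk4 had 2.29 in liver and 152 in muscle. Of 9 ketone body genes, 4 were higher in liver and 2 in muscle, and 2 of the 9 entered the test through liver only and 1 through muscle only. Oxct1, which tissues need to use ketones, had 1.08, 3.65 and 9.39 in liver and 68.1, 128.3 and 204 in muscle, with no overlap between tissues.

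Lipid synthesis stood higher in liver. Of 21 fatty acid synthesis genes, 14 were higher in liver and 1, Scd2 (-2.39 ± 0.11), in muscle, and 1 of the 21 entered the test through liver only. Scd1, which makes monounsaturated fatty acids, overlapped between tissues, at 202, 1884 and 5989 in liver and 16.1, 305 and 7913 in muscle. Its muscle values span far more than its liver values, and the adipocyte markers given above vary there too; their part was not tested. Fads2 (6.05 ± 0.08) and Elovl5 (5.12 ± 0.09), which make polyunsaturated fatty acids, separated the tissues fully. Of 23 cholesterol genes, 20 were higher in liver and none in muscle, including Sc5d (276 in liver and 13.3 in muscle), while Srebf2, the transcription factor of the pathway, was not called (0.83 ± 0.05). In storage, Fabp3, the fatty acid binding protein of muscle, was listed at a median of 0 in liver and had 18.6, 381 and 1502 in muscle. Breakdown of branched-chain amino acids gave 8 genes higher in liver and 2 in muscle of 19, and in TPM as deposited 1 and 4. Bckdk, the kinase that switches the pathway off, was higher in muscle at 4.17, 8.03 and 13.8 in liver and 45.5, 104.7 and 146.8 in muscle, and Bcat2, which starts it, was higher in muscle in 62 of 63 mice (-1.27 ± 0.07).

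Mitochondrial energy genes were called mostly in the direction of muscle. Of 21 tricarboxylic acid cycle genes, 2 were higher in liver and 13 in muscle, with a median of -1.65. Idh3a, a subunit of isocitrate dehydrogenase, had 4.87, 9.37 and 16.6 in liver and 73.5, 183 and 256 in muscle. Pcx, which refills the cycle and feeds glucose synthesis, was higher in liver (2.70 ± 0.09). Of 39 nuclear genes of electron transport and ATP synthase, 2 were higher in liver, 15 were higher in muscle and 22 were not called, with a median of -1.06. In TPM as deposited 33 were higher in muscle. Entry to the test was through muscle only for 2 of the 39. Atp5b, the catalytic subunit of ATP synthase, had 598, 848 and 1035 in liver and 756, 1826 and 2599 in muscle (-1.05 ± 0.05) and was among those not called, though it was called in TPM as deposited and without the 5 mice with lymphocyte genes in muscle. All 13 mitochondrially encoded genes had a lower median in liver, and 6 were called (13 in TPM as deposited), with mt-Nd1 at 2064 in liver and 5848 in muscle. Ppargc1a and Esrra, regulators of mitochondrial genes, were higher in muscle (-1.30 ± 0.08 and -1.62 ± 0.06).

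Most ribosomal, proteasome and clock genes were not called. Of 30 cytosolic ribosomal protein genes, 29 were not called, and the 95% intervals of 29 lay inside 2-fold. The exception was Rpl3, at 169, 254 and 349.8 in liver and 27.2, 43.7 and 146.3 in muscle (2.35 ± 0.07). Of 25 proteasome genes, 23 were not called, and the 2 higher in liver, Psmb8 (1.85 ± 0.10) and Psmb9 (1.98 ± 0.10), belong to the immunoproteasome. In TPM as deposited the ribosomal median was -0.61 in place of 0.04, 1 ribosomal gene was higher in each tissue, and 1 proteasome gene was higher in liver and 5 in muscle. Of 18 clock genes, 15 were not called, and 2 of the 18 entered the test through muscle only. Hlf (1.53 ± 0.07) was higher in liver, and Bhlhe41 (-3.11 ± 0.09) and Tef (-1.45 ± 0.10) were higher in muscle. No clock gene was higher in liver and 5 were higher in muscle in TPM as deposited. Of 37 genes of the secretory pathway, 26 were higher in liver and none in muscle, with a median of 1.49 (16 and 2 in TPM as deposited), led by the folding enzyme Pdia4 (103.03, 182 and 321 in liver and 7.24, 9.91 and 18 in muscle) and including the chaperone Hspa5 (605 in liver and 89.5 in muscle).

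Of 24 transcription factors known from liver, 21 were higher in liver, 16 of them genes that entered the test there only. Hnf4a, a nuclear receptor that maintains hepatocytes, had 83.4, 126.2 and 282 in liver and 0, 0.0349 and 5.34 in muscle, and Creb3l3 had medians of 134.1 in liver and 0.157 in muscle. Rxra (1.06 ± 0.05) and Cebpb (0.31 ± 0.09) were not called. Of 22 tested muscle factors, 20 were higher in muscle, and 12 of the 22 entered the test through muscle only. Mef2c had 0.795, 1.960 and 7.03 in liver and 81.5, 222 and 347 in muscle, and Myf6, a member of the MyoD family, was listed at a median of 0 in liver and had 14.1, 67.6 and 151 in muscle. Among secreted regulators, 16 of 19 listed hepatokines were higher in liver, among them Igf1 (203, 334 and 488 in liver and 5, 11.1 and 27.8 in muscle), the growth hormone target, and Hamp, the iron hormone hepcidin, which had 69.3, 634 and 1654 in liver and was listed at a median of 0 in muscle. Entry to the test was through liver only for 12 of the 19 hepatokines. Of 11 tested myokines, 7 were higher in muscle, and 4 of the 11 entered through muscle only and 1 through liver only. Mstn, which limits muscle growth, had 7.9, 39 and 91.7 in muscle, and Fndc5, the precursor of irisin, had medians of 0.182 in liver and 24.7 in muscle. Inhba and Fgf1 of that list were higher in liver (1.71 ± 0.10 and 1.43 ± 0.07).

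Markers of other cell types differed as well. Of 11 tested Kupffer cell and macrophage markers, 4 were higher in liver, led by Clec4f (12, 40 and 110.4 in liver), which was listed at a median of 0 in muscle, whereas Cd68 (0.02 ± 0.09) and Csf1r (0.53 ± 0.09), which macrophages share, were not called. Of 8 markers of liver sinusoidal endothelium, 7 were higher in liver, and of 9 of capillary endothelium, 4 were higher in muscle. All 8 fibro-adipogenic and all 8 adipocyte markers were higher in muscle, with Adipoq, the fat hormone adiponectin, listed at a median of 0 in liver and at 1.83, 42.1 and 461 in muscle. Entry to the test was through muscle only for 1 fibro-adipogenic and 7 adipocyte markers. It was through liver only for 4 Kupffer cell and macrophage and 4 sinusoidal markers. Among markers that entered in both tissues, 1 of Kupffer cells and macrophages and 3 of sinusoidal endothelium were higher in liver. The 4 tested erythrocyte markers included 1 called, Alas2 (3.17 ± 0.18). Lymphocyte and neutrophil markers did not reach the level of the test in enough libraries of either tissue, though lymphocyte markers stood out in the 5 muscle libraries given above.

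The same test in 60 high-fat pairs, which share no animal with the control pairs, called 2468 of 13117 genes (18.8%) higher in liver and 2242 (17.1%) higher in muscle. Of the 4904 genes called in control mice, 4859 were tested in high-fat mice, 4521 (93.04%) were called in the same direction, and none were called in the opposite direction. The test of the difference between diets, as an interaction over 13280 genes, called 423 genes (3.19%), and 196 of the 4904 tissue genes were among them. In TPM as deposited it called 77, and without mice whose libraries carry genes of the other tissue it called 685. The 6 smallest p-values included genes of fat metabolism. Levels and tissue differences of each diet below were scaled within that diet, while the interaction scaled the libraries of both diets together. Scd1 averaged 137.8 ± 190.3 scaled TPM in liver and 315 ± 374 in muscle of high-fat mice, against 2294 ± 1326 in liver and 780.4 ± 1393 in muscle of control mice (SD, n = 60 and 63). Its tissue difference was -1.68 in high-fat and 2.61 in control mice, a change of -4.28 ± 0.42 (limma adjusted p = 1.16e-14). Acacb averaged 4.95 ± 4.98 in liver and 37.2 ± 10.8 in muscle on the high-fat diet, against 22.1 ± 13.4 in liver and 37.8 ± 9.34 in muscle on the control diet, so that its tissue difference was -2.91 against -0.95 (limma adjusted p = 8.52e-15). Fabp5, a fatty acid binding protein, had a tissue difference of -0.56 on the high-fat and 2.24 on the control diet (limma adjusted p = 1.18e-13). Gpam, which starts triglyceride synthesis, had -0.18 on the high-fat and 0.94 on the control diet. Chrna4 and Fam198a were higher in control liver than in control muscle (1.86 and 2.40) and changed by -1.73 and -1.21.

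The spread between mice also differed between the tissues. Over 6194 genes that averaged 5 scaled TPM or more in both, absolute deviations from the tissue median were larger in liver for 399 genes (6.44%) and larger in muscle for 653 (10.5%). In TPM as deposited this balance turned to 688 and 66, and with a minimum of 12000 genes per library it was 223 and 681, so the balance of the counts changes with the scaling and the libraries used. Without the 5 mice with lymphocyte genes in muscle the counts were 445 and 326, and without the 9 with an rRNA-like share over 50% they were 309 and 955. The genes named below kept their direction in every alternative in which they were tested, and all but Mup18 also kept their call. Cep85, a centrosomal protein gene, had 4.15, 21.7 and 141.8 in liver and 14, 34 and 99.3 in muscle, and SDs of 1.23 in liver and 0.39 in muscle on the log2 scale (difference of deviations 0.80 ± 0.09, limma adjusted p = 4.73e-11). Alas1, the rate-limiting enzyme of heme synthesis in liver, had medians of 75.8 in liver and 82.2 in muscle, and SDs of 1.09 in liver and 0.29 in muscle. Lpin1, a phosphatidate phosphatase, had SDs of 1.13 in liver and 0.40 in muscle. Rps16, a ribosomal protein gene that was not in the list above, Col5a2, a collagen gene, and Mup18 also spread more in liver (1.08 ± 0.14, 0.85 ± 0.11 and 1.68 ± 0.23), Mup18 with the uncertainty of its family. Without the mice with genes of the other tissue, Mup18 did not reach the level of the spread test in both tissues. Its entry to that test thus rested on those mice.

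Genes that spread more in muscle included those of slow fibres. Tpm3 had SDs of 0.34 in liver and 1.79 in muscle (difference of deviations -1.21 ± 0.13, limma adjusted p = 4.01e-12), Csrp3 had 0.46 in liver and 2.00 in muscle, and Atp2a2 had 0.40 in liver and 1.40 in muscle. Mib1, a ubiquitin ligase gene, had 0.15 in liver and 0.91 in muscle. Trf, transferrin, and Apoe, both abundant in liver, had SDs of 0.21 and 0.19 there and 1.22 and 0.86 in muscle. Hepatocyte markers summed to 0.129 to 1398 scaled TPM in the same muscle libraries. Without the 3 mice with genes of the other tissue the differences of deviations of Trf and Apoe were -0.77 and -0.50, against -0.80 ± 0.09 and -0.54 ± 0.07 with them, and the part of hepatocyte RNA in the spread was not tested.

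**Figure D5:**
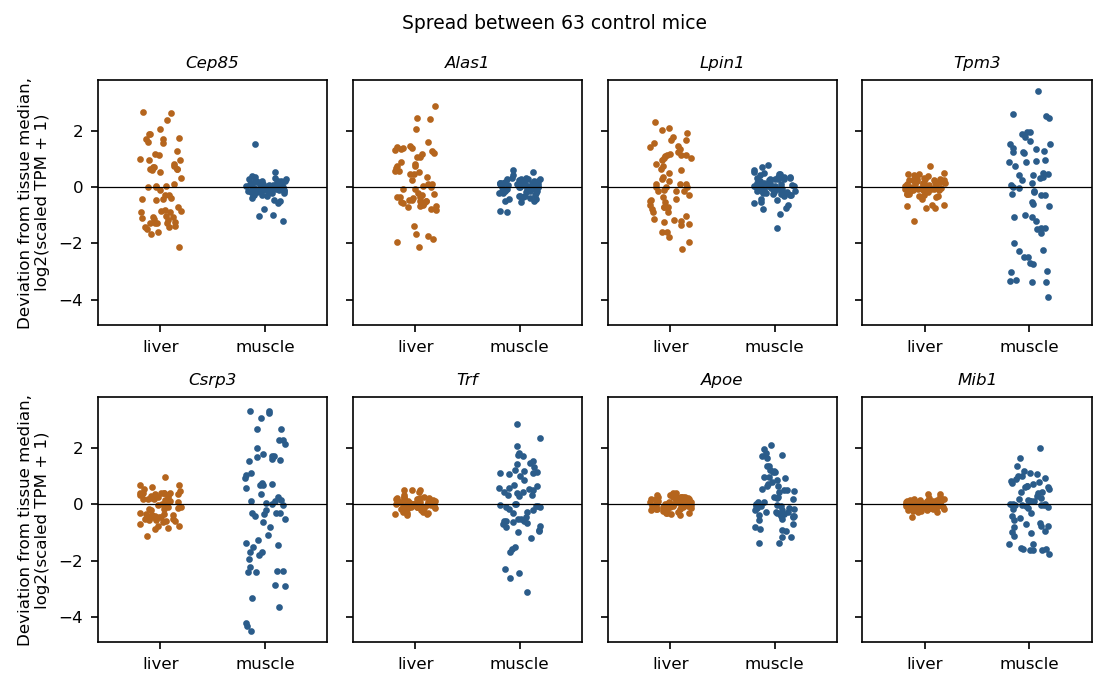
Deviation of each of 63 liver and 63 muscle libraries from the median of their tissue (y axis, log2(scaled TPM + 1)) for 8 genes, with liver left of muscle. Cep85, Alas1 and Lpin1 spread more in liver, with SDs of 1.23, 1.09 and 1.13, and Tpm3, Csrp3, Trf, Apoe and Mib1 spread more in muscle, with SDs of 1.79, 2.00, 1.22, 0.86 and 0.91.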

How the data were processed

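RNA of liver and skeletal muscle was sequenced on a MiSeq from total RNA libraries that keep strand, per the labels' protocols. Bowtie 1.2.2 and Trim Galore 0.4.4 are named in the submitters' processing notes, and for the quantifier, genome build and annotation nothing was given in the sources used here. The authors deposited TPM per gene for 47643 Ensembl gene identifiers, and each column adds up to 1000000. Depth is therefore unknown. Symbols came from GENCODE M21 for 99.12% of identifiers.

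Libraries were grouped by diet and tissue from the labels and paired by mouse number. Each was scaled by a trimmed mean of log ratios (30% of ratios and 5% of levels trimmed at each end) to a reference library, from protein-coding genes of the nucleus, with Lars2, whose signal follows rRNA, left out. The values log2(scaled TPM + 1) were fitted with limma 3.58.1 (R 4.3.3), mouse as a block, trend and robust variance. Treat tested beyond 2-fold, and the diet interaction and the spread of absolute deviations were tested against 0, with Benjamini-Hochberg adjustment over all genes. The spread test used genes of at least 5 scaled TPM on average. The procedure was tested on simulated data.

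Pairing comes from the mouse number: liver and muscle of the same number correlated with a median r of 0.618 over 150 genes chosen in high-fat mice, against -0.0119 for other mice. Members, gene lists, pairs and motifs were chosen with earlier results of these data known. Genes named are the 12 largest differences in each direction among called genes of at least 5 scaled TPM, the isoform pairs, up to 5 called genes of largest and 3 of lowest difference per list, members that did not pass, markers, and the 6 smallest p-values for spread in each tissue and for diet. Alternatives changed the scaling, pseudocount, filter, library minimum, block, fold threshold and mice. Adipose libraries and libraries under the minimum were not used here. Some genes are not reported here.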

Additional observations from a re-analysis of the deposited data

Results flagged for a closer look

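For 14 of 160 genes named in the text, the test of the difference itself called a change of the gap between liver and muscle with diet (limma interaction, adjusted p under 0.05, 60 high-fat and 63 control pairs), against 423 of 13280 genes (3.19%) in all. Of the 14, 6 were named for having the smallest p-values. The calls of Bcat2, Elovl5, Gbe1, Pdk4, Pklr and Tef were lost in TPM as deposited, and that of Pdk4 also without the mice with lymphocyte genes in muscle, and that of Bcat2 without the mice with genes of the other tissue. The values below are the tissue difference in high-fat mice minus that in control mice on the log2 scale. Among lipid genes, Scd1 changed by -4.28, Acacb by -1.97, Gpam by -1.12 and Elovl5 by -0.77, and Sc5d of cholesterol synthesis changed by -0.81. Fabp5 changed by -2.79. In sugar metabolism, Pklr changed by -0.86 and Gbe1 by -0.35, and Pdk4, which blocks glucose oxidation, changed by -0.92. Chrna4 changed by -1.73 and Fam198a by -1.21. The other genes moved upwards, with Alas1 at 0.90, Tef at 0.49 and Bcat2 at 0.33.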

How the results depend on the processing

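Scaling and the fold threshold moved the counts most among the alternatives run. With TPM as deposited, 3669 genes were higher in muscle in control mice, and 1634 were higher in liver and 3461 in muscle in high-fat mice. The median of all genes moved by -0.55, and liver held 32.1% of the calls in control mice, against 52.8%. Rescaling to the coding sum gave 1953 and 3312. TPM as deposited also gave 77 interaction genes, and 688 genes that spread more in liver and 66 in muscle. Under it Angptl4, Eno1, Fgf1, Hlf, Pfkl, Por and Psmb8 were no longer called higher in liver, Acacb, Akt2, Atp5b, Gpihbp1, Hadhb and Irs1 were called higher in muscle, and the interaction calls of Bcat2, Elovl5, Gbe1, Pdk4, Pklr and Tef were lost. No named gene that was called changed its direction in any alternative run. Without the mice with genes of the other tissue, chosen after seeing the data, 685 interaction genes were called; the cause was not tested. Without the mice with lymphocyte genes in muscle, also chosen after seeing the data, 326 genes spread more in muscle. A library minimum of 12000 genes gave 223 genes that spread more in liver, over 38 pairs. Against no difference limma called 6076 genes higher in liver and 5861 in muscle, and against 4-fold 1300 and 962. Without the mouse as a replicate block, 2585 and 2303 genes were called in control mice, and no count moved by over 1.5 times. Depth is unknown, so genes near 1 scaled TPM carry an error that cannot be given.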

Other observations

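Vitamin, iron and peroxisome genes were also compared. Of 22 genes of vitamin and one-carbon metabolism, 20 were higher in liver, and of 21 tested heme and iron genes, 13 were higher in liver and 1 in muscle. The vitamin and one-carbon genes included 12 that entered the test through liver only, and the heme and iron genes included 4. Of 30 peroxisome genes, 17 were higher in liver and 2 in muscle. Entry was through liver only for 4 of the 30, and the 2 higher in muscle entered through muscle only. The share of the library held by a few genes was as follows. The 10 most abundant nuclear protein-coding genes of a library took a median of 26.2% in liver and 29.4% in muscle, and the 100 most abundant took 53.7% in liver and 50.6% in muscle.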
